A study of Mus musculus with 37 samples.

Results

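The contractile unit of heart muscle, the sarcomere, is built from myosin thick filaments and actin thin filaments that slide past each other. The thin filaments are anchored at the Z-disc and the thick filaments are held together at the M-band, with titin reaching from one to the other. In ventricular muscle the Z-disc also carries LIM-domain and PDZ-domain proteins that bind actin and α-actinin and that have been linked to the sensing of mechanical load. The genes described here code for 34 of these proteins, chosen by symbol from a list of sarcomere and Z-disc components, and all 34 were found among the 56748 genes of the deposited table. Each passed the filter on low values that left 16579 genes for testing.

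Left ventricular RNA of 37 C57BL/6J mice of both sexes, 8 to 10 weeks old, was sequenced in bulk. Naïve mice (n = 5) were anaesthetised with isoflurane, like all others, without intubation or injection. Adr mice, called sham in the sample labels, were ventilated and received saline and then adrenaline into the left ventricle. Arrest mice received potassium chloride into the left ventricle, were held in asystole for 8 min, and were then resuscitated with the same adrenaline and chest compressions. Adr and Arrest hearts were taken after 0.5 or 1 day and after 3 or 7 days (n = 4 for each of the 8 groups). Adr hearts therefore share the anaesthesia, ventilation, needle and adrenaline of Arrest hearts but not the potassium chloride, the asystole or the compressions. No group had the injection without adrenaline. The apex, where the needle entered, was discarded, and only mice that regained circulation reached collection. In the study some Arrest mice of the 3 and 7 day groups also died before collection, while all Adr and Naïve mice survived. Arrest hearts at 3 and 7 days are therefore those of survivors.

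Values are FPKM, the fragments counted on a gene per kilobase of its length, times 1 factor per library, so levels can be compared between genes. That factor was not set by the number of fragments counted on genes alone. Deposited values were from 0.711 times (Adr replicate 3 at 3 days) to 1.12 times (Arrest replicate 3 at 1 day) what scaling by counted fragments would give. Libraries held 13.2 to 30.2 M fragments counted on genes (M for mega). The least covered of the 34 genes, Lmod3, still had 144 fragments in its lowest library. Differences were tested with limma on log2(FPKM + 1) over all tested genes, with Benjamini-Hochberg adjustment within each comparison, and a gene passed at an adjusted p of at most 0.05. Each library was 1 mouse, so p-values measure the spread between mice within groups, and all 8 comparisons with Naïve share the same 5 Naïve libraries. In bulk tissue, fewer cells of a type and less RNA per cell cannot be told apart.

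The tissue carried the markers of ventricular myocardium. A sum over 10 cardiomyocyte markers that are not among the 34 genes (among them Myh6, Myl2 and Ryr2, all found) lay between 16390 and 20560 FPKM in Naïve hearts. Of 12 skeletal muscle markers, Myh4 and Tnnc2 were at 0 in every library. Others were detected at low levels, led by Mybpc2 (Naïve median 3.38 FPKM) and Mylpf (2.71 FPKM), and the 12 summed to 5.47 to 9.62 FPKM in Naïve hearts and to 5.57 to 10.9 FPKM at 1 day after Arrest. One library stood apart. In Adr replicate 3 at 3 days the cardiomyocyte sum was 4343 FPKM, and genes of the mitochondrial genome took 9.36% of fragments, against 20.8% to 30.9% in the other 36 libraries. In that library fibroblast markers summed to 1135 FPKM (257.6 to 334.7 in Naïve) and macrophage markers to 902.4 FPKM (152.4 to 259.8 in Naïve). Its atrial marker sum of 496.3 FPKM was above the 13.8 to 32.4 of Naïve but below the highest Adr library at 1 day (707.8 FPKM). The study's methods left out 1 Adr sample at 3 days for poor quality, and the labels do not say which. All 4 were kept here, and results that rest on replicate 3 are given with and without it.

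In Naïve hearts the levels of the 34 genes spanned more than 3 orders of magnitude. Actc1, the cardiac α-actin of the thin filament, was highest at 5024 ± 505 FPKM (SD, n = 5), followed by troponin I (Tnni3, 1455 ± 260), troponin C (Tnnc1, 1340 ± 188) and α-tropomyosin (Tpm1, 962.5 ± 49.2). The lowest Naïve library for Actc1 (4271 FPKM) lay above the highest for Tnni3 (1754 FPKM). Next came Fhl2, a LIM-only adaptor (731.5 ± 44.9), Tcap, the titin cap telethonin (610.8 ± 108), and troponin T (Tnnt2, 582.8 ± 53.1). Cardiac myosin-binding protein C (Mybpc3) stood at 461.9 ± 13.8 FPKM and muscle LIM protein (Csrp3) at 419.6 ± 24.2.

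The middle of the order was held by scaffold genes. Desmin (Des), the intermediate filament around the Z-disc, read 346.5 ± 55.1 FPKM, α-actinin (Actn2) 289.4 ± 31.3, calsarcin 1 (Myoz2), which binds calcineurin, 273.2 ± 28.2 and the leiomodin Lmod2 215.8 ± 41.4. Ldb3, also called cypher, read 118.1 ± 6.65 FPKM, the M-band crosslinker Myom1 88.6 ± 6.12, the methyltransferase Smyd1 87.6 ± 7.12 and the myofibril assembly protein Nrap 67.4 ± 8.66. Capzb, the β subunit of the barbed-end capping protein (64.2 ± 6.60 FPKM), and the second myomesin Myom2 (64.1 ± 3.22) had overlapping libraries, as had 23 of the 33 pairs of neighbours in this order.

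Below 60 FPKM lay Pdlim5 (56.3 ± 4.79), the pointed-end cap Tmod1 (41.8 ± 3.44), Fhl1 (40.3 ± 5.04), Lmod3 (34.3 ± 3.88) and the myosin chaperone Unc45b (33.1 ± 5.26). The Xin proteins of the intercalated disc read 29.2 ± 2.72 FPKM (Xirp2) and 24.8 ± 4.84 (Xirp1), and titin (Ttn) 27.8 ± 3.96. Filamin C (Flnc) was at 22.9 ± 3.30 FPKM, Synpo2l at 19.0 ± 2.69, nebulette (Nebl) at 16.9 ± 3.00, myopalladin (Mypn) at 15.8 ± 1.36 and myotilin (Myot) at 11.7 ± 3.84. Synpo2 (8.65 ± 1.21 FPKM) and Pdlim3 (3.80 ± 0.94) closed the order, and their Naïve libraries did not overlap. Titin has the longest listed length, 117334 bases, and had 15963 to 85260 fragments per library, while the shortest gene, Tcap, has 948 bases.

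The question of the comparisons with Naïve was how far adrenaline with injection, or arrest with resuscitation, moved these genes and for how long. At 0.5 days after Arrest, 3 of the 34 genes differed from Naïve, all higher (3.2% of all tested genes differed). They were Pdlim5, Pdlim3 and Fhl1, listed here as Z-disc genes. At 1 day 8 of 34 differed, 6 higher and 2 lower (7.11% of all tested genes differed). The 6 were Pdlim5, Pdlim3, Fhl1, Csrp3, Myot and Capzb, and the 2 were Lmod3 and Nebl. The median difference of the 34 genes was 0.04 on the log2 scale at 0.5 days and 0.15 at 1 day, beside 0.03 over all tested genes at both times, with genes on either side (19 and 21 of 34 above 0).

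**Figure D1:**
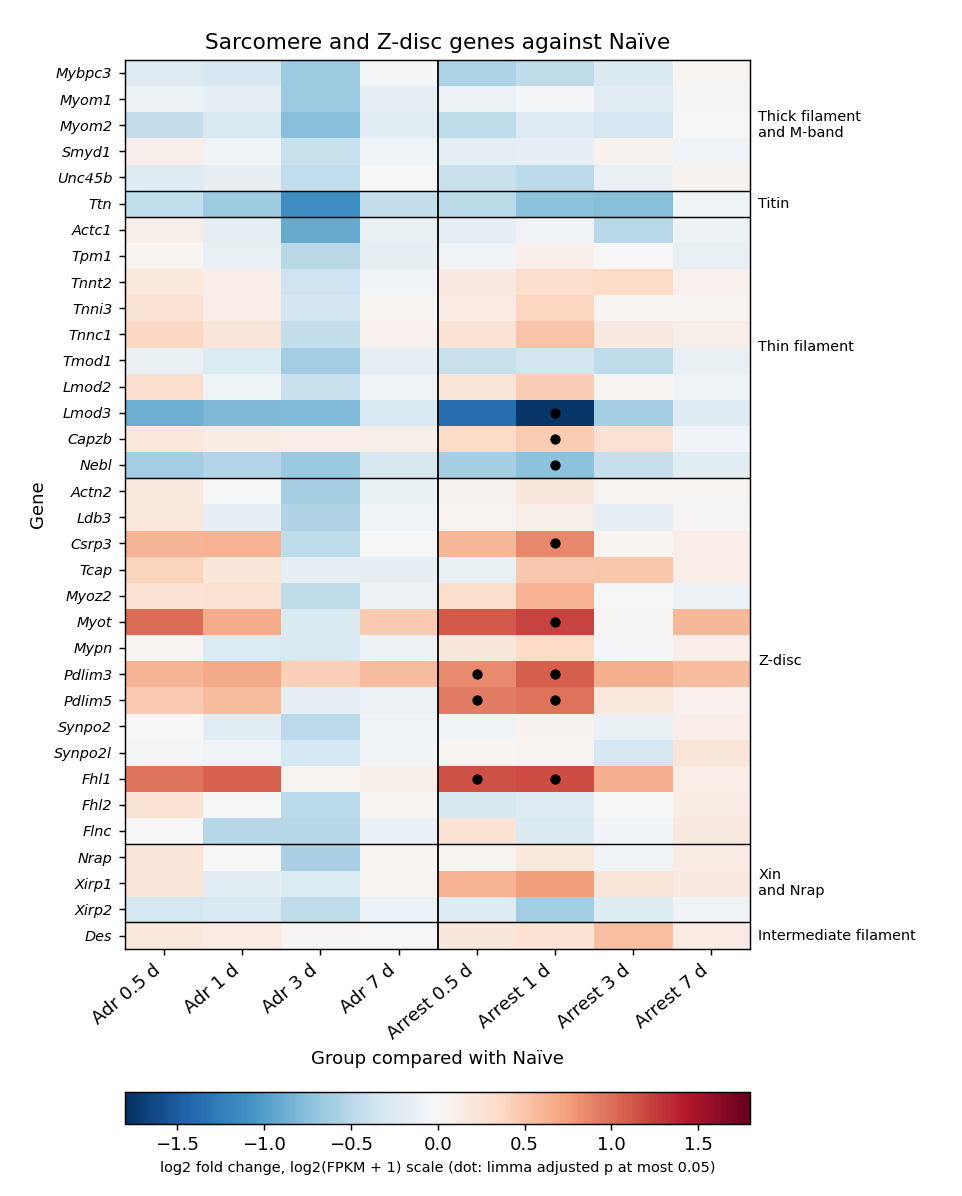
Log2 fold change against Naïve (colour, log2(FPKM + 1) scale) of the 34 genes (rows, by role) in the 8 Adr and Arrest groups (columns), with a dot where the limma adjusted p was at most 0.05. The 11 dots all lie in the Arrest columns at 0.5 and 1 day, and the Adr 3 d column, which includes the library that stood apart, is below 0 for 30 of 34 genes.

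By role, the genes that passed were Z-disc and thin filament genes. Of 14 Z-disc genes 5 passed at 1 day after Arrest, with a median difference of 0.42 on the log2 scale. Of 10 thin filament genes 3 passed (median 0.20). None of the 5 thick filament and M-band genes passed, and all 5 were below Naïve (differences from -0.48 for Unc45b to -0.03 for Myom1 on the log2 scale). Titin (-0.74), the 3 genes of the Xin and Nrap group (from -0.63 for Xirp2 to 0.75 for Xirp1) and desmin (0.26) did not pass either. These groups were compared by their counts and medians only. Each gene was given 1 role, and the counts depend on that choice. Fhl1, bound to titin in the I-band, was counted as a Z-disc gene. Nebl, which anchors thin filaments at the Z-disc, was counted as a thin filament gene.

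The most stable difference was that of Pdlim5, which codes for the PDZ-LIM protein ENH, an adaptor between α-actinin and protein kinase C. Pdlim5 read 61.0, 49.6, 56.4, 53.7 and 60.5 FPKM in the 5 Naïve libraries. It read 90.4, 136.0, 100.4 and 107.6 FPKM at 0.5 days after Arrest and 135.2, 111.2, 115.0 and 88.8 at 1 day. Every Arrest library at both times lay above every Naïve library. The difference was 0.92 ± 0.18 on the log2 scale (SE) at 0.5 days (limma, adjusted p = 0.00387) and 0.98 ± 0.18 at 1 day (limma, adjusted p = 0.00125), which is 2.0 times the Naïve mean. By 3 days the mean was 66.1 ± 21.2 FPKM (SD, n = 4) and by 7 days 59.6 ± 5.02, neither of which passed. In Adr hearts Pdlim5 read 77.7, 76.7, 84.4 and 74.9 FPKM at 0.5 days and 101.4, 80.4, 86.8 and 68.1 at 1 day, all above Naïve and, at 0.5 days, all below the Arrest libraries. The Adr differences of 0.47 and 0.56 on the log2 scale did not pass (limma, adjusted p = 0.211 and 0.115).

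Pdlim3, the related PDZ-LIM protein ALP, was the lowest of the 34 in Naïve hearts, with 3.94, 4.92, 4.39, 2.53 and 3.22 FPKM. It read 7.39, 11.4, 6.48 and 5.74 FPKM at 0.5 days after Arrest and 11.9, 11.03, 8.81 and 5.49 at 1 day. No Arrest library at these times overlapped Naïve. The differences were 0.85 ± 0.24 on the log2 scale (limma, adjusted p = 0.0434) and 1.08 ± 0.24 (limma, adjusted p = 0.00571), and at this level the added 1 FPKM understates the ratio of means at 1 day, which was 2.45. The call at 0.5 days was lost without Naïve replicate 1, 4 or 5 or Arrest replicate 1, 2 or 3, and in 8 of 11 settings that kept all libraries. That at 1 day held whichever library was left out and was lost in 1 of those 11, with the number of the sample description as a covariate. In Adr hearts Pdlim3 read 4.49, 4.93, 8.37 and 7.90 FPKM at 0.5 days and 5.43, 7.13, 8.93 and 5.42 at 1 day, and neither difference passed. At 7 days Pdlim3 was still at 6.05 ± 1.02 FPKM in Adr and 6.17 ± 1.68 in Arrest hearts, with differences of 0.57 on the log2 scale in each that did not pass.

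Fhl1, a LIM-only protein bound to titin in the I-band, read 46.8, 37.6, 41.2, 33.5 and 42.5 FPKM in Naïve hearts. At 0.5 days after Arrest it read 53.8, 204.2, 72.3 and 83.2 FPKM, and at 1 day 125.7, 86.7, 83.9 and 78.5. All 8 libraries lay above Naïve, with replicate 2 at 0.5 days far above its group. The differences were 1.15 ± 0.33 on the log2 scale at 0.5 days (limma, adjusted p = 0.0462) and 1.18 ± 0.33 at 1 day (limma, adjusted p = 0.0251). Leaving out single libraries, 10 in turn, the call at 0.5 days was lost 8 times and held without Arrest replicate 1 or Adr replicate 3 at 3 days. That at 1 day was lost 3 times, without Naïve replicate 4 or Arrest replicate 1 or 3. Adr hearts reached similar means, 82.3 ± 27.2 FPKM at 0.5 days and 90.4 ± 35.8 at 1 day, on libraries that ranged from 57.8 to 120.6 and from 55.5 to 123.9. These Adr differences of 0.97 and 1.07 on the log2 scale did not pass (limma, adjusted p = 0.179 and 0.112). By 7 days Fhl1 was at 43.2 ± 1.66 FPKM in Adr and 43.8 ± 4.35 in Arrest.

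**Figure D2:**
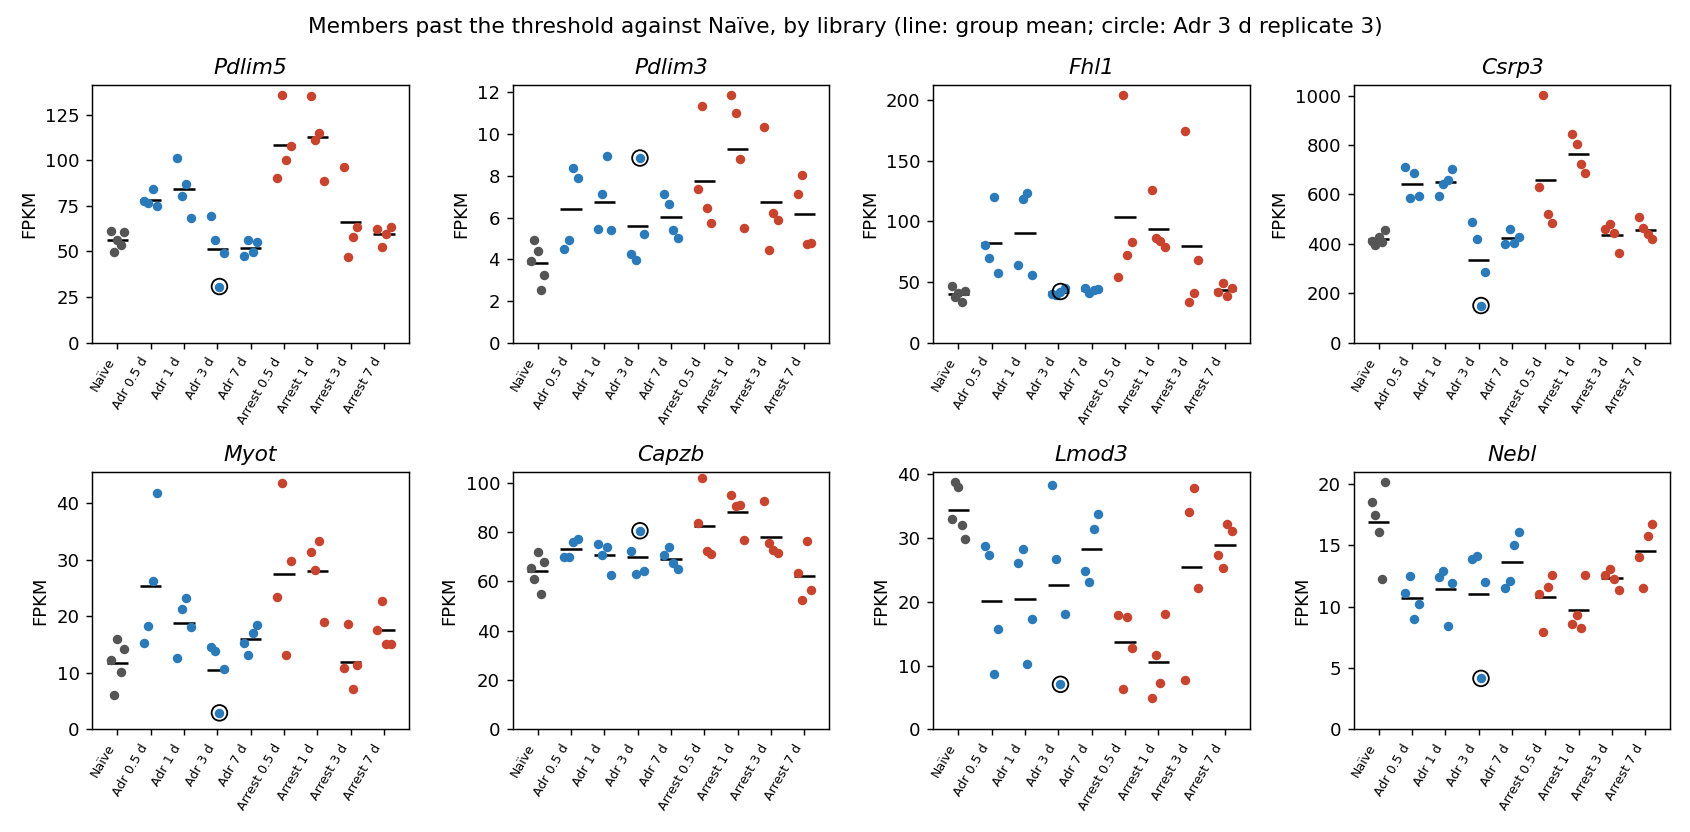
FPKM (vertical axes, from 0) of the 8 genes that passed in at least 1 comparison with Naïve, by group (horizontal axes), 1 point per library with the group mean as a line and Adr 3 d replicate 3 circled. Pdlim5 lies between 88.8 and 136.0 FPKM in Arrest hearts of 0.5 and 1 day and from 49.6 to 61.0 in Naïve, while Lmod3 runs the other way.

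Csrp3, the muscle LIM protein, was the most abundant gene to pass. Its Naïve libraries read 412.2, 394.2, 426.8, 407.0 and 457.5 FPKM, and those at 1 day after Arrest 843.9, 806.2, 722.9 and 685.2. The groups did not overlap, and the difference was 0.86 ± 0.21 on the log2 scale (limma, adjusted p = 0.0101). At 0.5 days Arrest libraries read 630.8, 1001, 521.9 and 485.3 FPKM, also above Naïve, and the difference of 0.59 did not pass (limma, adjusted p = 0.107). In Adr hearts Csrp3 was at 644.4 ± 63.8 FPKM at 0.5 days and 649.1 ± 45.1 at 1 day. These differences of 0.61 and 0.63 did not pass with all libraries (limma, adjusted p = 0.174 and 0.138).

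Myot codes for myotilin, an actin-bundling protein of the Z-disc. It read 12.2, 6.01, 15.9, 10.2 and 14.2 FPKM in Naïve libraries and 31.4, 28.2, 33.2 and 18.9 at 1 day after Arrest, without overlap. The difference of 1.22 ± 0.34 on the log2 scale passed (limma, adjusted p = 0.0260) and was lost without Naïve replicate 2 or Arrest replicate 1, 2 or 3. At 0.5 days the Arrest libraries (23.3, 43.5, 13.1 and 29.7 FPKM) overlapped Naïve, and the difference of 1.10 did not pass (limma, adjusted p = 0.0679). In Adr hearts Myot read 15.2, 18.2, 26.2 and 41.7 FPKM at 0.5 days, a difference of 1.01, the highest of the 34 in that comparison. It read 12.5, 21.3, 23.2 and 18.1 FPKM in Adr at 1 day, and neither Adr difference passed. Capzb moved least of those that passed, from 65.3, 60.8, 72.1, 55.0 and 67.9 FPKM in Naïve to 94.9, 90.5, 91.0 and 76.7 at 1 day after Arrest. That was a difference of 0.45 ± 0.12 on the log2 scale (limma, adjusted p = 0.0143), lost without Arrest replicate 1 or 3.

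The lowest log2 fold change of the 34 was that of Lmod3, a leiomodin that lengthens thin filaments at their pointed ends. Naïve libraries read 32.9, 38.7, 38.0, 32.0 and 29.8 FPKM. Arrest libraries read 17.9, 6.25, 17.6 and 12.8 FPKM at 0.5 days and 4.96, 11.6, 7.23 and 18.1 at 1 day, all below Naïve. The difference at 1 day was -1.75 ± 0.41 on the log2 scale (limma, adjusted p = 0.00873), or 0.306 times the Naïve mean. At 0.5 days it was -1.36 ± 0.41 (limma, adjusted p = 0.0622). It did not pass at 1 day without Arrest replicate 1, the lowest library. The related leiomodin Lmod2 had a difference of 0.44 on the log2 scale at 1 day, which did not pass. In Adr hearts Lmod3 ranged from 8.60 to 28.7 FPKM at 0.5 days and from 10.3 to 28.2 at 1 day, and by 7 days it was at 28.3 ± 5.11 FPKM in Adr and 28.9 ± 3.25 in Arrest.

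Nebl codes for nebulette, which anchors thin filaments at the Z-disc. It read 18.5, 17.5, 16.1, 12.2 and 20.2 FPKM in Naïve and 8.60, 9.34, 8.28 and 12.6 at 1 day after Arrest, so that Naïve replicate 4 fell within the Arrest range. The difference of -0.74 ± 0.21 on the log2 scale passed (limma, adjusted p = 0.0281) and was lost without Naïve replicate 1, 2 or 5 or Arrest replicate 1, 2 or 3. Naïve replicate 4 was also the lowest Naïve library for Ttn, with 20.8 FPKM against 28.5 to 30.3 in the other 4. Ttn read 14.8, 21.7, 11.6 and 17.95 FPKM at 1 day after Arrest, a difference of -0.74 ± 0.25 that did not pass (limma, adjusted p = 0.0676). Means of both genes were below Naïve in early Adr hearts too. There Nebl read 11.1, 12.5, 8.97 and 10.2 FPKM at 0.5 days and 12.4, 12.9, 8.42 and 11.9 at 1 day. Ttn read 24.7, 22.6, 13.2 and 22.04 FPKM at 0.5 days and 13.6, 26.7, 15.3 and 16.1 at 1 day. Neither gene passed in Adr with all libraries.

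Mybpc3 lay outside its Naïve range in both early Arrest groups without passing. It lay between 442.3 and 478.2 FPKM in Naïve. It read 354.9, 350.6, 303.9 and 258.2 FPKM at 0.5 days after Arrest and 301.7, 408.8, 322.0 and 323.5 at 1 day, all below Naïve, with differences of -0.55 ± 0.26 and -0.45 ± 0.26 on the log2 scale (limma, adjusted p = 0.244 and 0.307). In the model, the spread of Mybpc3 included that of the 3 day groups, where libraries ranged from 132.9 to 507.0 FPKM in Adr and from 226.1 to 593.2 in Arrest. Fitted with Naïve alone, each difference passed (limma, adjusted p = 0.0291 and 0.0267). Adr libraries of Mybpc3 read 462.35, 396.8, 359.5 and 359.83 FPKM at 0.5 days and 413.03, 410.86, 311.36 and 373.05 at 1 day. Every Adr library at 1 day was thus below Naïve too, and neither Adr difference passed with all libraries. Flnc read 22.03, 64.8, 19.6 and 18.9 FPKM at 0.5 days after Arrest, where replicate 2 alone set its mean above Naïve.

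Several of the calls depended on how libraries were treated. When the number that each library carries in its sample description was entered as a covariate, 1 gene passed at 0.5 days and 0 at 1 day. That number ran from 70 to 95 in Arrest libraries at 1 day and from 116 to 127 in Naïve, without overlap, and what it counts is not given in the labels. With it the difference at 1 day was 1.44 on the log2 scale for Myot, 0.77 for Pdlim5, 0.74 for Csrp3, 0.80 for Fhl1, 0.35 for Capzb, -1.17 for Lmod3 and -0.42 for Nebl, and for Pdlim3 it was 0.48 in place of 1.08 (limma, adjusted p = 0.576). With libraries quantile normalized, 2 genes passed above and 1 below Naïve after 0.5 days. After 1 day 3 passed above and 4 below, with a median of -0.04 for the 34 genes at 1 day in place of 0.15. Over all tested genes that median was -0.02 in place of 0.03. Mybpc3 and Xirp2 passed at 1 day below Naïve, and Csrp3, Capzb and Fhl1 no longer passed. Each of the 11 calls kept its sign under all 11 alternative settings that kept every library.

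The cardiomyocyte markers moved with the 1 day Arrest group. Their sum lay between 20590 and 26950 FPKM there, above every Naïve library, the highest of which was close at 20560 FPKM. Atrial markers, among them the stress-responsive Nppa, summed to 32.7 to 73.3 FPKM in these libraries and to 13.8 to 32.4 in Naïve. Their part in the differences of the 34 genes was not tested. As a share of all counted fragments, the 34 genes together took 3.78% to 4.397% in Naïve and 4.11% to 4.52% at 1 day after Arrest, ranges that overlap.

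**Figure D3:**
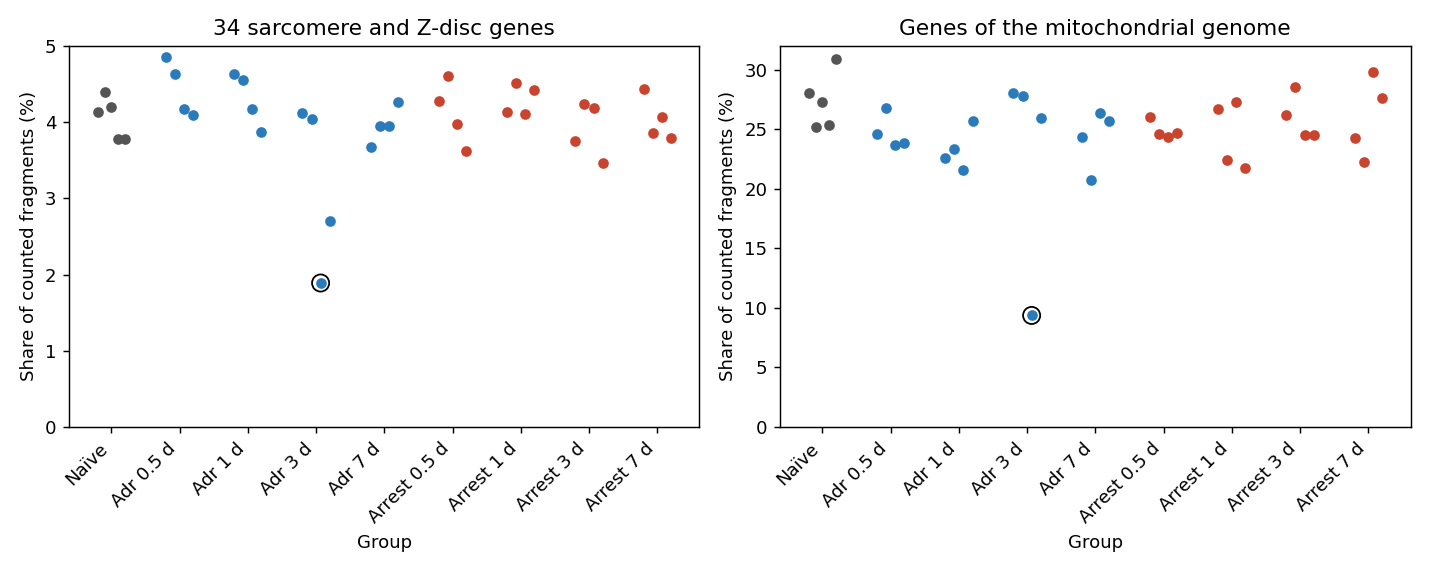
Share of counted fragments (vertical axes, percent, from 0) on the 34 genes (left) and on genes of the mitochondrial genome (right) by group, 1 point per library, with Adr 3 d replicate 3 circled. That library is lowest in both panels, at 1.89% and 9.36%, and Adr 3 d replicate 4 is next lowest on the left at 2.70%.

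At 3 and 7 days none of the 34 genes passed against Naïve in either arm. By limma, 0.139% of all tested genes differed at 3 days after Arrest, where 2273 had an unadjusted p up to 0.05, and 0% at 7 days (852 unadjusted). For Adr, 0% differed at 3 days (2297 unadjusted) and 0% at 7 days (1023 unadjusted). The Arrest hearts at 3 days were unlike each other. Fhl1 read 175.1, 33.2, 41.0 and 68.5 FPKM in replicates 1 to 4, Pdlim5 96.3, 47.0, 57.9 and 63.3, and Lmod3 7.78, 34.05, 37.8 and 22.1. Replicate 1 thus had the highest Fhl1, Pdlim5 and Pdlim3 (10.4 FPKM) of its group and the lowest Lmod3, Mybpc3 (226.1 FPKM) and Ttn (11.7 FPKM). Desmin was at 509.7 ± 121 FPKM in this group, every library above the Naïve range of 282.4 to 398.9, the lowest only just (399.5 FPKM). Its difference of 0.54 on the log2 scale did not pass (limma, adjusted p = 0.184). Adr libraries at 3 days read 394.5, 421.1, 216.4 and 400.5 FPKM for desmin. By 7 days after Arrest the differences of the 34 genes ran from -0.24 to 0.59 on the log2 scale, with a median of 0.06.

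In Adr hearts none of the 34 genes passed at 0.5 days by limma (0.187% of all tested genes differed, with 2315 before adjustment) or at 1 day (0.627%, with 2435 before adjustment). Their median difference was 0.18 on the log2 scale at 0.5 days, with 22 of 34 above 0, and -0.07 at 1 day, with 14 above 0. Over all tested genes the median was 0.04 at both times. Cardiomyocyte markers summed to 20400 to 22670 FPKM in Adr hearts at 0.5 days, and atrial markers to 30.0 to 707.8 FPKM at 1 day, and their part in these values was not tested. Without Adr replicate 3 at 3 days in the model, which changes the estimate of the spread but no value of these groups, Csrp3 rose (limma, adjusted p = 0.0305) and Nebl fell (limma, adjusted p = 0.0322) at 0.5 days (1.35% of all tested genes differed). At 1 day Csrp3, Pdlim5 and Nebl then passed, the last of them lower (2.5% of all tested genes differed). For Arrest the same change gave 7 of 34 genes at 0.5 days (5.49% of all tested genes differed), adding Csrp3, Myot, Lmod3 and Nebl. At 1 day it gave 11 (10.3%), adding Myoz2 (0.62 on the log2 scale), Tnnc1 (0.51) and Ttn (-0.74), with limma adjusted p-values of 0.00360, 0.0471 and 0.0246.

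At 3 days in Adr hearts most of the 34 genes had means below Naïve, none past the threshold, and their number changed with replicate 3. With all 4 libraries 30 of 34 differences were below 0, with a median of -0.46 on the log2 scale (0.02 over all tested genes). Without replicate 3 it was 22 of 34 with a median of -0.11 (0.01 over all tested genes). Scaled by fragments counted on genes, the median with all 4 libraries was -0.34 (0.10 over all tested genes). In that library 26 of the 34 genes were lower than in any other library of the series. How many of all tested genes were lowest there was not counted. The sum of the 10 cardiomyocyte markers outside the 34 was lowest there too. Myom2 read 11.4 FPKM against 51.7 to 58.3 in the other 3 Adr libraries at 3 days, Tnni3 390.5 against 1546 to 1707, and Tcap 204.1 against 666.8 to 965.4. Not all genes were low there. Capzb (80.5 FPKM) and Pdlim3 (8.85 FPKM) were above their group, at 121.3% and 197.4% of its mean without replicate 3, and Fhl1 was level with it at 101.7%. Replicate 4 was low for some genes as well. Apart from replicate 3, it was the lowest library of the series for Tnnc1, Tpm1, Fhl2, Csrp3, Actn2, Ldb3, Smyd1, Ttn and Synpo2. For Flnc (10.6 FPKM) and Actc1 (1178 FPKM, against 5361 and 5028 in replicates 1 and 2) it was the lowest of all. The only gene near the threshold was Ttn, with libraries of 19.8, 17.3, 5.64 and 10.98 FPKM and a difference of -1.12 on the log2 scale (limma, adjusted p = 0.0859), which was -0.79 without replicate 3 (limma, adjusted p = 0.464).

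**Figure D4:**
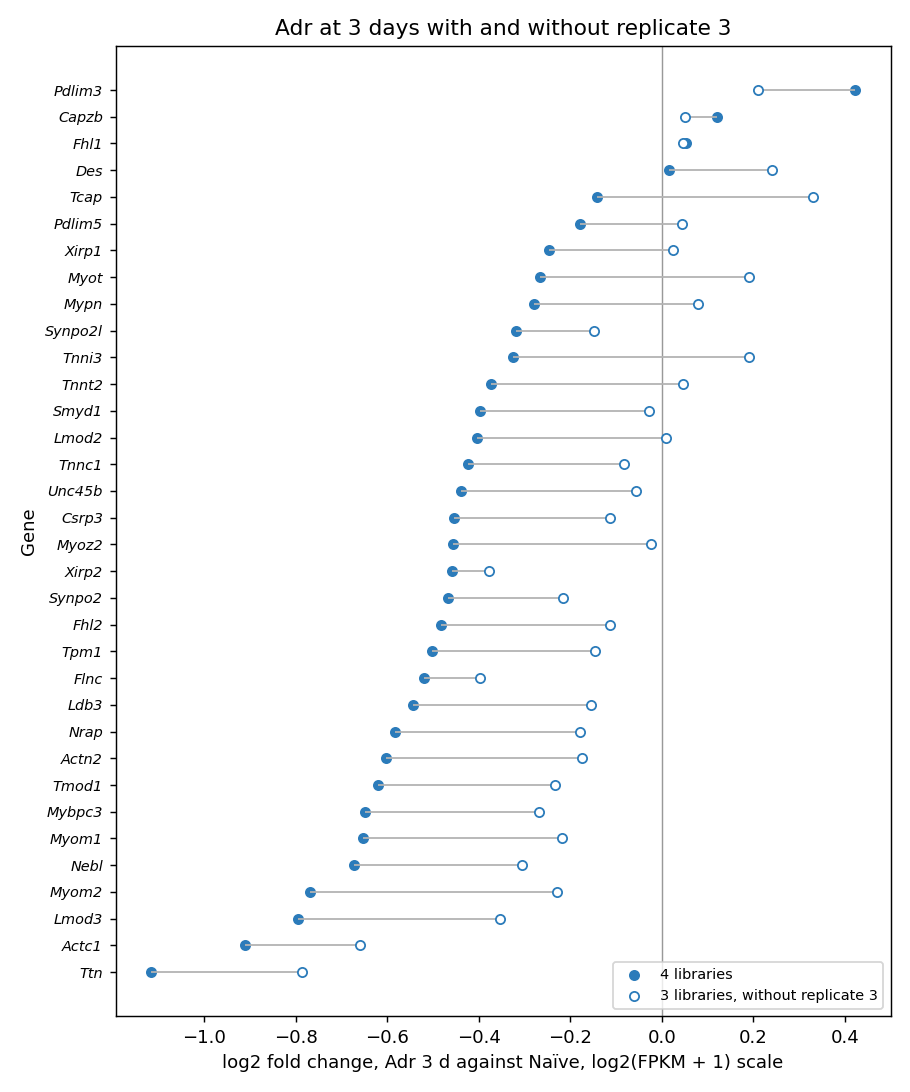
Log2 fold change of Adr at 3 days against Naïve (horizontal axis, log2(FPKM + 1) scale) for each of the 34 genes (vertical axis), from all 4 libraries (filled) and from 3 libraries without replicate 3 (open). The open points lie nearer to 0 for most genes, with the median moving from -0.46 to -0.11, and Ttn and Actc1 stay lowest at -0.79 and -0.66. The open point of Actc1 rests on replicate 4 (1178 FPKM, against 5361 and 5028 in replicates 1 and 2).

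Arrest and Adr hearts were compared at the same time points to separate arrest with resuscitation from adrenaline with injection. Potassium chloride was given in Arrest only, so it cannot be told apart from the arrest here. None of the 34 genes passed by limma at 0.5 days (0% of all tested genes differed, 642 before adjustment), 1 day (0%, 1093 unadjusted), 3 days (0%, 891 unadjusted) or 7 days (0.00603%, 419 unadjusted). For Pdlim5 the difference between Arrest and Adr was 0.45 on the log2 scale at 0.5 days (95% confidence interval 0.07 to 0.83) and 0.41 at 1 day (0.04 to 0.79). For Xirp1, which ranged from 27.3 to 58.9 FPKM in Arrest and averaged 21.3 ± 2.95 in Adr at 1 day, it was 0.94 (0.26 to 1.63). For Lmod3 it was -0.95 at 1 day (-1.83 to -0.06), and for Fhl1 and Csrp3 it was 0.11 (-0.59 to 0.82) and 0.23 (-0.21 to 0.68). These intervals are for 1 gene at a time, and none of the 5 differences passed after adjustment over all genes. At 3 days all 34 differences were above 0 with all libraries and 25 of 34 without Adr replicate 3. Their medians were 0.43 and 0.10 on the log2 scale, beside 0 over all tested genes in both.

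Gene length moved with these differences. Among the 34 genes, long ones tended to lie lower against Naïve, with a Spearman correlation of -0.53 between length and log2 fold change for Adr at 0.5 days and -0.37 for Arrest at 1 day (34 genes of the same libraries, given as a description). Across all 11549 genes with a mean of at least 1 FPKM the same correlations were -0.36 and -0.34. At 1 day after Arrest the 17 shorter genes (up to 4493 bases) had a median difference of 0.39 on the log2 scale and the 17 longer ones (from 4546 bases) of 0.06. With the trend of each library with length removed, 6 of the 8 calls at 1 day held. Nebl (15235 bases) went from -0.74 to -0.56 (limma, adjusted p = 0.102), Myot from 1.22 to 1.07 (limma, adjusted p = 0.0630) and Ttn from -0.74 to -0.22 (limma, adjusted p = 0.573). Lmod3 (2215 bases) and Pdlim5 (8877 bases) went against the trend, at -1.90 and 1.07 after its removal.

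**Figure D5:**
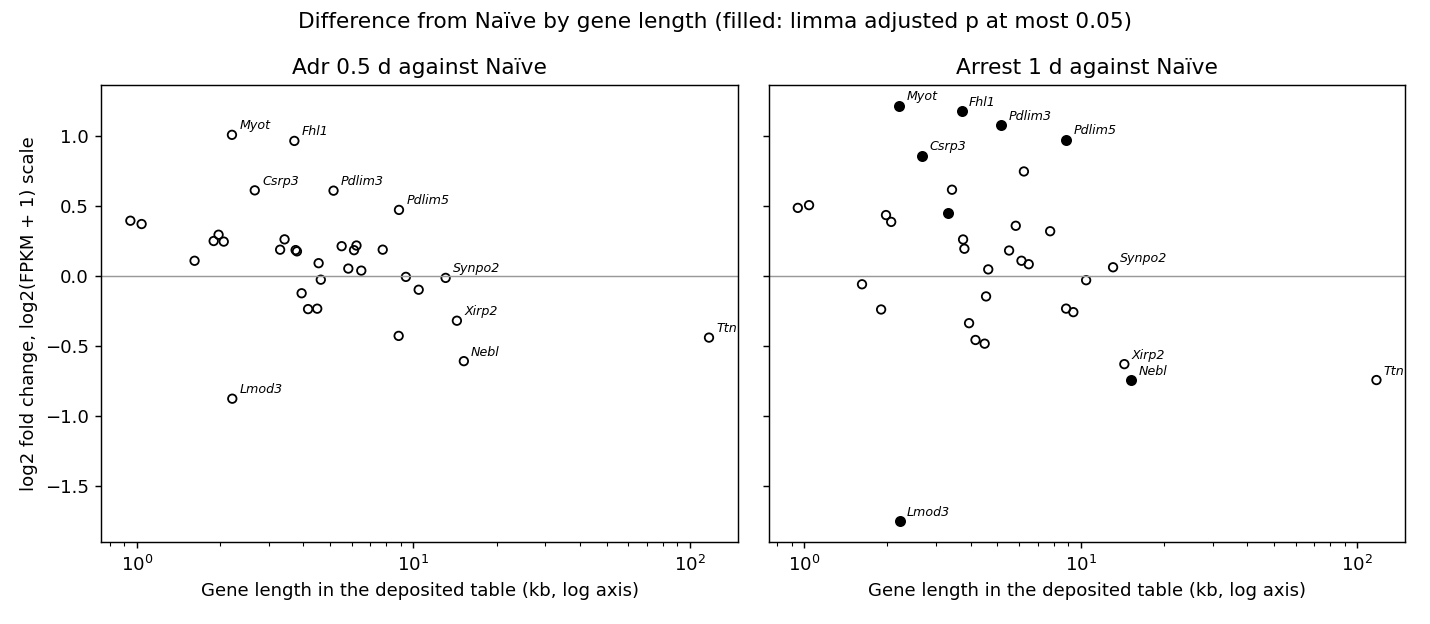
Log2 fold change against Naïve (vertical axis, log2(FPKM + 1) scale) by gene length in the deposited table (horizontal axis, kilobases, log axis) for the 34 genes at 0.5 days in Adr (left) and 1 day in Arrest (right), filled where the limma adjusted p was at most 0.05. Titin, at 117334 bases, and Nebl lie low in both panels, while short Lmod3 lies lowest and Pdlim5 high.

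Other genes of the sarcomere and its upkeep were taken from lists outside the 34. At 1 day after Arrest 3.89% of all tested genes were called higher and 3.22% lower, and at 0.5 days 1.75% and 1.45%, against which the small counts of these lists are read. Of 13 further thick filament and M-band genes, 1 passed at 1 day after Arrest, the myosin light chain kinase family member Mylk4, which fell from 20.3 to 7.36 FPKM (-1.38 on the log2 scale; limma, adjusted p = 0.0138). None of 13 tested genes of the further thin filament list passed at either early Arrest time. Of 16 tested Z-disc and intermediate filament genes, 1 rose and 2 fell at 1 day. The PDZ-LIM gene Pdlim7 rose from 6.95 to 12.0 FPKM (0.72; limma, adjusted p = 0.0236). Palladin (Palld) fell from 16.2 to 9.81 FPKM (-0.68; limma, adjusted p = 0.000782) and Pgm5 from 32.8 to 18.3 (-0.81; limma, adjusted p = 0.00247), and both had also passed at 0.5 days. Palld was also the only gene of the 5 lists to pass in Adr hearts with all libraries, at 1 day (-0.47; limma, adjusted p = 0.0498). Among 17 tested chaperone and turnover genes the small heat shock protein Hspb1 rose from 205.6 FPKM to 387.5 at 0.5 days and 356.5 at 1 day after Arrest (0.88 and 0.84; limma, adjusted p = 0.0285 and 0.0209). The medians of the 5 lists at 1 day ran from -0.20 to 0.04 on the log2 scale, beside 0.03 over all tested genes. Without Adr replicate 3 at 3 days the lists of thick filament, Z-disc and chaperone genes had 2, 4 and 2 calls at 1 day. With the trend with gene length removed, Mylk4, Pdlim7, Palld and Pgm5 still passed at 1 day after Arrest. Hspb1 passed at neither 0.5 days nor 1 day (limma, adjusted p = 0.0957 and 0.129), and Palld did not pass in Adr at 1 day (limma, adjusted p = 0.150).

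Of 17 transcription factors and other regulators of sarcomere genes, 4 fell at 1 day after Arrest and 3 at 0.5 days, with all libraries. Without Adr replicate 3 at 3 days in the model, 6 fell at 1 day and 3 at 0.5 days, and Hand2 rose at both times, from 17.3 FPKM in Naïve to 30.8 and 29.1 (0.76 and 0.68 on the log2 scale; limma, adjusted p = 0.0338 and 0.0418, and 0.0590 and 0.0647 with all libraries). At 1 day Mef2a fell from 13.2 to 8.28 FPKM (-0.60 on the log2 scale; limma, adjusted p = 0.00258), Tbx20 from 9.28 to 5.32 (-0.69; limma, adjusted p = 0.00488) and Mef2c from 4.37 to 2.57 (-0.58; limma, adjusted p = 0.0175). The fourth, Hdac9, a class IIa histone deacetylase that binds MEF2 factors, was at 0.996 FPKM against 1.77 in Naïve (-0.48; limma, adjusted p = 0.0493). With the trend with gene length removed, Mef2a and Tbx20 still passed at 1 day (limma, adjusted p = 0.0282 and 0.0275). Mef2c and Hdac9 did not (limma, adjusted p = 0.120 and 0.271). Nor did Mef2a, Tbx20 and Mef2c, the 3 that fell at 0.5 days (limma, adjusted p = 0.0971, 0.107 and 0.133).

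Promoters of the 34 genes were searched for the binding motifs of these factors and of serum response factor, to show where the letters occur. RefSeq promoter windows (GRCm38.p6) matched 29 of the 34 genes by symbol, and Lmod3, Xirp1, Tcap, Myom2 and Myot had none. Within 250 bases before the start, on either strand, a MEF2 site occurred in 6 of the 29 genes (20.7%, beside 1.99% of all gene symbols) and a CArG box, the motif of serum response factor, in another 6 (20.7%, beside 1.62%). The M-CAT motif CATTCC of TEAD factors occurred in 8 (27.6%, beside 14.4%), among them Pdlim3 and Nebl. The glucocorticoid response element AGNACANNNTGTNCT occurred in none (0.074% of all symbols). The stretches below are shown for the 2 genes that passed at 1 day and hold a CArG box (Fhl1, Nebl), for the most abundant gene (Actc1), and for 3 genes with a MEF2 site whose values are given above (Ttn, Mybpc3, Myoz2). Capitals mark the motif, and each is written in the direction of its gene.
Fhl1, CArG box, chrX:56779561-56779610, plus strand: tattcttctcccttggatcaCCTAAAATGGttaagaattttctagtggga
Nebl, CArG box, chr2:17462989-17463038, minus strand: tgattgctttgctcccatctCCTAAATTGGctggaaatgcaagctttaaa
Actc1, CArG box, chr2:114052893-114052942, minus strand: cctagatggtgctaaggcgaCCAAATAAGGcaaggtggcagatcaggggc
Ttn, MEF2 site, chr2:76982684-76982733, minus strand: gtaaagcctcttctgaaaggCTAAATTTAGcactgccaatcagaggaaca
Mybpc3, MEF2 site, chr2:91118034-91118083, plus strand: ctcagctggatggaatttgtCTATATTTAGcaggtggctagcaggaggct
Myoz2, MEF2 site, chr3:123034991-123035040, minus strand: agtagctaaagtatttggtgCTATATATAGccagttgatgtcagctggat

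The first base of these motifs lay 102 (Fhl1), 162 (Nebl), 47 (Actc1), 166 (Ttn), 90 (Mybpc3) and 33 (Myoz2) bases before the start. Genes with a given motif did not share a direction. At 1 day after Arrest, Fhl1 rose and Nebl fell, both with a CArG box, while Actc1 was at -0.06 on the log2 scale. Of the other genes with a CArG box, Ldb3 had a mean above Naïve and Fhl2 and Myom1 means below, none past the threshold. Of the genes with a MEF2 site, Mybpc3, Ttn and Xirp2 had means below Naïve at 1 day and Myoz2, Synpo2 and Synpo2l above. None of the genes with a MEF2 site passed with all libraries. A match of letters shows no binding.

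The pattern of Pdlim5 over the 9 group means was most like that of Eci2, an enzyme of fatty acid oxidation, among genes outside the 34 (Pearson r = 0.986, 9 groups), followed by Mrgbp (0.982), Mpi (0.982), Hint3 (0.981) and Gpx4-ps2 (0.981). Within the 34 genes the nearest were Fhl1 (0.937), Myoz2 (0.925) and Csrp3 (0.921), and the farthest was Lmod3 (-0.845). These correlations describe 9 means that share libraries and depth. Reads of near-identical genes, such as Gpx4-ps2 with its parent gene or Actc1 with the other actins, may be split by the counting, whose settings are not given in the sources used here.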

How the data were processed

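Novogene sequenced left ventricular RNA of 37 libraries in 9 groups as paired ends, with FastQC for read quality and HISAT2 for alignment. What the authors deposited is a single FPKM table that lists length and symbol for each of 56748 genes, and all of its library columns were used (0 unused). Genome build, annotation, counting tool and strand are not given in the sources used here. FPKM times length gave whole fragments in 100% of values (tolerance 0.1, checked up to 1000 fragments) and so the depth, 13.2 to 30.2 M fragments per library, which limits the precision of low values. Median-ratio factors were equal in all libraries, so the deposited values already carry such a scaling in place of one by counted fragments. They were used as deposited. No library within a group was a copy of another (58 pairs, lowest chi-square per gene 11.7).

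On the scale log2(FPKM + 1), which understates changes of low genes, limma 3.58.1 (R 4.3.3, trended eBayes, no covariate) was fitted once to all groups for 16579 genes that reached 0.5 FPKM in 4 or more libraries. The study's count-based test was replaced by this test on the deposited scale, with limma-voom on the recovered fragments as an alternative (2 of the 34 genes at 0.5 days and 8 at 1 day after Arrest). Adjustment was by Benjamini-Hochberg over all tested genes in each of 12 comparisons, at 0.05. The code was first tested on simulated data. All 34 genes are given with their level. Values per library are given for genes that passed against Naïve or had 1 of the 3 largest rises or falls in Adr or Arrest at 0.5 or 1 day. For some of these genes and groups, among them Lmod3, Fhl1 and Csrp3 in Adr, ranges or means are given instead. Of the other lists, up to 3 rises and 3 falls that passed are named, with the 5 genes outside the 34 most correlated with Pdlim5. Chosen after their values were seen were Hdac9, Hand2, Des, Flnc, Xirp1 and the genes named for Adr replicate 3. The members, lists and tests were chosen with earlier results of these data known. Same-numbered replicates were not pairs: in no comparison did every such pair correlate above 0.1. Alternatives covered pseudocount, filter, scaling, length, weights, covariates and single libraries. Promoter windows are from RefSeq, GRCm38.p6. Plots used matplotlib 3.10.9 and Python 3.11.15.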

Additional observations from a re-analysis of the deposited data

Results flagged for a closer look

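Within each group the highest and lowest library of each of the 34 genes was set against the gap to its neighbour, and 9 of 306 sets of gene and group had a library farther out than Dixon's 95% critical value. Chance alone would give about 1 such set in 20. Adr replicate 3 at 3 days was the lowest of its group for Tnni3 (390.5 FPKM, next 1546), Des (216.4, next 394.5) and Myom2 (11.4, next 51.7), and it also had the lowest share of mitochondrial fragments in the series. Arrest replicate 2 at 0.5 days was the highest for Xirp1 (124.0 FPKM, next 29.5), Flnc (64.8, next 22.03) and Synpo2l (47.6, next 14.5). The other 3 were Myom2 in Arrest replicate 2 at 1 day (65.9 FPKM, next 52.0), Tmod1 in Arrest replicate 3 at 3 days (41.6, next 27.6) and Ttn in Naïve replicate 4 (20.8, next 28.5), all in FPKM.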

How the results depend on the processing

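The number of the 34 genes past the threshold at 0.5 days after Arrest, 3 with all libraries, was 1 without a filter on low values, with the trend with gene length removed, with the description number as a covariate and with the replicate block, and ran from 1 to 7 when 1 library was left out (7 without Adr replicate 3 at 3 days; 1 without Naïve replicate 1, 4 or 5 or Arrest replicate 2). At 1 day after Arrest, 8 with all libraries became 5 without a filter, 13 with sample quality weights and 0 with the description number, and ran from 3 (without Arrest replicate 1; 4 without replicate 3) to 11 (without Adr replicate 3 at 3 days). For Adr at 0.5 days, 0 became 2 with quality weights and 1 when only the 2 groups were fitted, and ran from 0 to 2. At 1 day, 0 became 2 when scaled by counted fragments and 1 when only the 2 groups were fitted, and ran from 0 to 3. For Adr at 3 days leaving out 1 library gave 0 to 1 (Ttn, without replicate 1 or 2). The cause of these moves was not tested. The share of all tested genes that passed is given for the main fit and without Adr replicate 3 at 3 days only. Under the other settings the counts have no such share beside them, so they are not read as particular to the 34 genes. Replicate numbers did not pair the samples. A replicate block gave 6 genes at 1 day after Arrest and 0 in each comparison of Adr with Naïve. Pdlim5 at 0.5 days passed in all 21 alternatives and at 1 day in 20 of 21. Flnc at 0.5 days, 0.25 on the log2 scale, ran from -0.16 (without Arrest replicate 2) to 0.41 when 1 library was left out. The counts for Arrest at 3 and 7 days, Adr at 7 days and Arrest against Adr at each time were 0 under every alternative run. With 4 or 5 mice a group, differences smaller than the spread between mice could not be called.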
